A study of Homo sapiens with 12 samples.

Results

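Cerebral organoids (COs) grown from unedited H1 cells, a human embryonic stem cell line, were compared between day 12 and day 24 of culture. These WT COs gave 2 libraries at day 12 and 2 at day 24, which are 4 of the 12 libraries of the series. The other 8 came from COs of KO#2 and KO#10, H1 clones that carry a CRISPR-Cas9 edit of c-JUN, with 2 libraries for each clone and day. They enter here only in the shared estimate of the spread and in a comparison of the change with time. All lines followed the same unguided protocol, in which embryoid bodies are kept in neural induction medium, embedded in Matrigel and moved to differentiation medium. Each library held RNA of several pooled COs, depleted of ribosomal RNA and prepared with a strand-specific kit. The labels do not say whether the libraries of a group came from separate cultures. The p-values measure the spread between libraries within all 6 groups of line and day, which may be technical. Genes were compared when 2 or more of the 4 WT libraries had a score of 10 or higher, which left 8890 of 10976 genes.

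In unguided COs the cells of the embryoid body leave pluripotency and form a neuroepithelium, from which progenitors and later neurons arise. The protocol adds no factor that removes the other germ layers, and endoderm, mesoderm and epithelium can persist beside the neural tissue. Yolk sac and fetal liver endoderm are known for secreting alpha-fetoprotein, fibrinogen and apolipoproteins, and mesenchyme for laying down fibrillar collagens and small proteoglycans.

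The deposited values are whole-number scores and not counts. In every WT library the median score was 17 and the highest 5585, a level held by 9 or 10 genes, and the libraries each had 269 to 271 distinct values. Column totals lay between 473637 and 483149, as the normalization set them, so the sequencing depth is unknown and counting error cannot be stated. Pearson's r of log2 (score + 1) across the genes tested was 0.948 between the day 12 libraries and 0.953 between the day 24 libraries, and 0.691 to 0.779 between libraries of different days (genes are not independent replicates). JUN (ENSG00000177606, chromosome 1, 58776845 to 58784048, in the coordinates of the files, which fit the human build GRCh38), the edited gene, scored 4 and 8 at day 12 and 13 and 15 at day 24 in WT. From day 12 to day 24 it went from 19 and 18 to 39 and 39 in KO#2 and from 14 and 13 to 29 and 32 in KO#10, so its score was not below that of WT in either clone. Gene scores cannot show an edit within a transcript, and WT and KO below mean the libraries so labelled. The paper reported no c-JUN protein in the KO lines by western blot, and no c-JUN expression in KO COs by RT-qPCR. The JUN scores differ from that RT-qPCR result, and the reason was not tested.

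From day 12 to day 24, 634 of the 8890 genes tested rose in WT (7.13%) and 686 fell (7.72%), at an adjusted p under 0.05 in limma and a change of at least 2-fold on the scale of score + 1. The day 24 libraries lay wholly beyond the day 12 libraries in all 1320 of these, but this also held for 32.8% of all genes tested in the upward direction and 32.1% in the downward direction. These shares are the background for the counts of each gene list. The median log2 change of all genes tested was 0.02. A rise of at least 8-fold was found for 80 of the genes called and a fall of that size for 41. The filter set the direction of some genes in advance, since 538 reached it through the day 24 libraries alone and 513 through the day 12 libraries alone. The counts rested on 2 libraries in particular. Without WT day 12 replicate 1 there were 315 genes higher and 354 lower, and without WT day 24 replicate 2 there were 332 and 406. An exact permutation test of 2 libraries against 2 cannot give a two-sided p below 0.333, so the tests rest on the spread shared over all 12 libraries. In pooled tissue, fewer cells of a type and less RNA per cell cannot be told apart.

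The largest rise was that of AFP, which encodes alpha-fetoprotein, the main serum protein of the yolk sac and fetal liver (ENSG00000081051, chromosome 4, 73431138 to 73456174). Its score was 3 and 8 at day 12 and 5585 and 5585 at day 24, the top level of the scale, so the change may be understated (log2 fold change 9.86 ± 2.49 SE, adjusted p = 0.0166 in limma). The SE is pooled over all 6 groups and does not describe WT alone. The day 24 libraries of KO#10 lay far apart, at 902 and 0 for AFP, 112 and 0 for FGB, 68 and 0 for APOA2 and 1009 and 28 for COL3A1. The call of AFP in limma was lost without any single WT library (adjusted p = 0.0526 to 0.0979, with log2 changes of 9.28 to 10.45) and with a pseudocount of 0.1 (adjusted p = 0.0515), and over the other settings the adjusted p was 0.00127 to 0.0238. TTR, which encodes transthyretin, a carrier of thyroid hormone and retinol-binding protein (ENSG00000118271, chromosome 18, 31557009 to 31598833), scored 0 and 3 at day 12 and 424 and 471 at day 24 (log2 fold change 7.81 ± 0.80 SE, adjusted p = 0.000419). Both libraries of day 24 lay far above both of day 12 in each of these genes. TTR is also a marker of choroid plexus, and of the 12 genes on that list 10 were in the files and 6 were tested. TTR and the water channel gene AQP1 (from 1 and 0 to 33 and 21) rose. So did the carbonic anhydrase gene CA4 (from 3 and 6 to 20 and 15). These 3 are 50% of the 6, against 7.13% of all genes tested, but all 3 reached the filter through day 24 alone, which set their direction. Both day 24 libraries lay below both day 12 libraries in 2 of the 6, against 32.1% of all genes tested. Among these 2 was OTX2, with 69 and 73 at day 12 and 47 and 36 at day 24.

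The bases before the start of the hepatic and yolk sac genes were searched for GTTAAT, letters of the half-site of the hepatocyte factor HNF1, on both strands. The motif was chosen after the scores were seen, and a match is a description of letters, not of binding. RefSeq (GRCh38.p14) gave a promoter for 24 of the 28 members in the files, and GTTAAT stood within 250 bases before a start in 9 of them (37.5%), against 474 of 8907 genes of the files with a promoter (5.32%). Among all called genes with a promoter, GTTAAT stood in that stretch in 6.65% of those higher and 6.63% of those lower. Of the 18 members with a promoter that rose, 8 held it, which were AFP, FABP1, FGA, FGB, GSTA1, GSTA2, HNF4A and SERPINA1. The first, FGB and SERPINA1 are shown because they are among the genes with the largest rises. Each sequence runs 5′ to 3′ on the strand of its gene and ends at the base before the RefSeq start, with GTTAAT or its reverse complement in capitals. AFP covers chr4:73435971-73436220 on the plus strand, FGB chr4:154562730-154562979 on the plus strand and SERPINA1 chr14:94388603-94388852 on the minus strand, and the capitals begin 132, 51 and 76 bases before the start.
AFP: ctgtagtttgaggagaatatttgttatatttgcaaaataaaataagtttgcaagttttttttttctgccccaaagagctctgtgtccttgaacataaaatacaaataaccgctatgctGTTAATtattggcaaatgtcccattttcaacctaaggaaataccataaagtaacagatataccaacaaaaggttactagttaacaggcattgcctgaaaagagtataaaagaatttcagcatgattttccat
FGB: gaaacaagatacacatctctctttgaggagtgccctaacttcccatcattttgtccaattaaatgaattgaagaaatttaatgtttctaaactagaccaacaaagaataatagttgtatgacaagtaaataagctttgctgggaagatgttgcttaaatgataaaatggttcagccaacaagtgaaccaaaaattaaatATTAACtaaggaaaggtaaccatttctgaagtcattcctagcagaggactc
SERPINA1: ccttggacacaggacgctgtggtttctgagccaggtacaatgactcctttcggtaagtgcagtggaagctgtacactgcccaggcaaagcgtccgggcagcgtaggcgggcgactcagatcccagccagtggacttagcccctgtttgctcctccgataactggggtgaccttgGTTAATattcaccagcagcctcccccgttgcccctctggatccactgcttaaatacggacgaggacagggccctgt

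Most genes for secreted proteins of hepatic and yolk sac endoderm rose. Of 28 members in the files 25 were tested, 22 rose and none fell, against 7.13% of all genes tested that rose. The median log2 change of the members tested was 4.99, but 22 of the 25 reached the filter through day 24 alone, and 11 of those that rose were listed at 0 in both libraries of day 12. Counted without the filter, both day 24 libraries were above both day 12 libraries in 26 of the 28 members, against 31.8% of all 10976 genes (30.4% lay below). FGB, the fibrinogen beta chain, scored 1 and 6 at day 12 and 750 and 426 at day 24 (log2 fold change 7.24 ± 1.83 SE, adjusted p = 0.0166). Among the apolipoproteins, which carry lipid in plasma particles, APOA1 scored 0 and 2 at day 12 and 167 and 149 at day 24 (6.52 ± 1.21, adjusted p = 0.00491) and APOA2 0 and 2 at day 12 and 212 and 278 at day 24 (7.14 ± 1.71, adjusted p = 0.0138). APOB, the scaffold of large lipoproteins, was listed at 0 in both day 12 libraries and scored 41 and 35 at day 24 (adjusted p = 0.003). No library of day 24 came near the day 12 scores in these genes.

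Plasma carriers and inhibitors, a hepatic transcription factor and liver enzymes also rose. SERPINA1, the alpha-1-antitrypsin gene, scored 0 and 1 at day 12 and 81 and 136 at day 24 (log2 fold change 6.23 ± 1.13 SE, adjusted p = 0.0044). RBP4, the plasma carrier of retinol, was listed at 0 in both day 12 libraries and scored 102 and 94 at day 24 (adjusted p = 0.00521). AHSG, which encodes fetuin-A, was listed at 0 and then scored 67 and 92, and HNF4A, a transcription factor of hepatic and visceral endoderm, was listed at 0 and then scored 17 and 17. The iron exporter gene SLC40A1 went from 0 and 1 to 38 and 22 (4.40 ± 0.64, adjusted p = 0.00172). GSTA1 and GSTA2, glutathione transferases of liver, were listed at 0 at day 12 and scored 26 and 20 and, respectively, 35 and 27 at day 24, and reads of these near-identical paralogs may have been divided between them.

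Several of these genes lie side by side. On chromosome 4, FGB (154563011 to 154572807), FGA (154583128 to 154590745) and FGG (154604134 to 154612967) encode the chains of fibrinogen, and FGA and FGG were listed at 0 at day 12 and scored 40 and 29 and, respectively, 55 and 26 at day 24. On chromosome 11, APOA4 (116820700 to 116823304), APOC3 (116829706 to 116833072) and APOA1 (116835751 to 116837622) are neighbours, and APOC3 was listed at 0 and then scored 36 and 87. ALB, the albumin gene (ENSG00000163631, chromosome 4, 73397114 to 73421482), lies just before AFP and did not reach the filter, with 3 and 5 at day 12 and 6 and 12 at day 24. Of the 3 members tested that did not rise, the endocytic receptor gene LRP2, also active in neuroepithelium, scored 55 and 58 at day 12 and 25 and 12 at day 24 (log2 fold change -1.64 ± 0.62 SE, adjusted p = 0.0723), the retinoic acid hydroxylase gene CYP26A1 31 and 23 and then 12 and 17 (-0.86 ± 0.67, adjusted p = 0.352) and APOE 91 and 74 and then 114 and 206 (0.89 ± 0.41, adjusted p = 0.128). Without WT day 12 replicate 1, 12 members were called, and without WT day 24 replicate 2 there were 14.

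**Figure D1:**
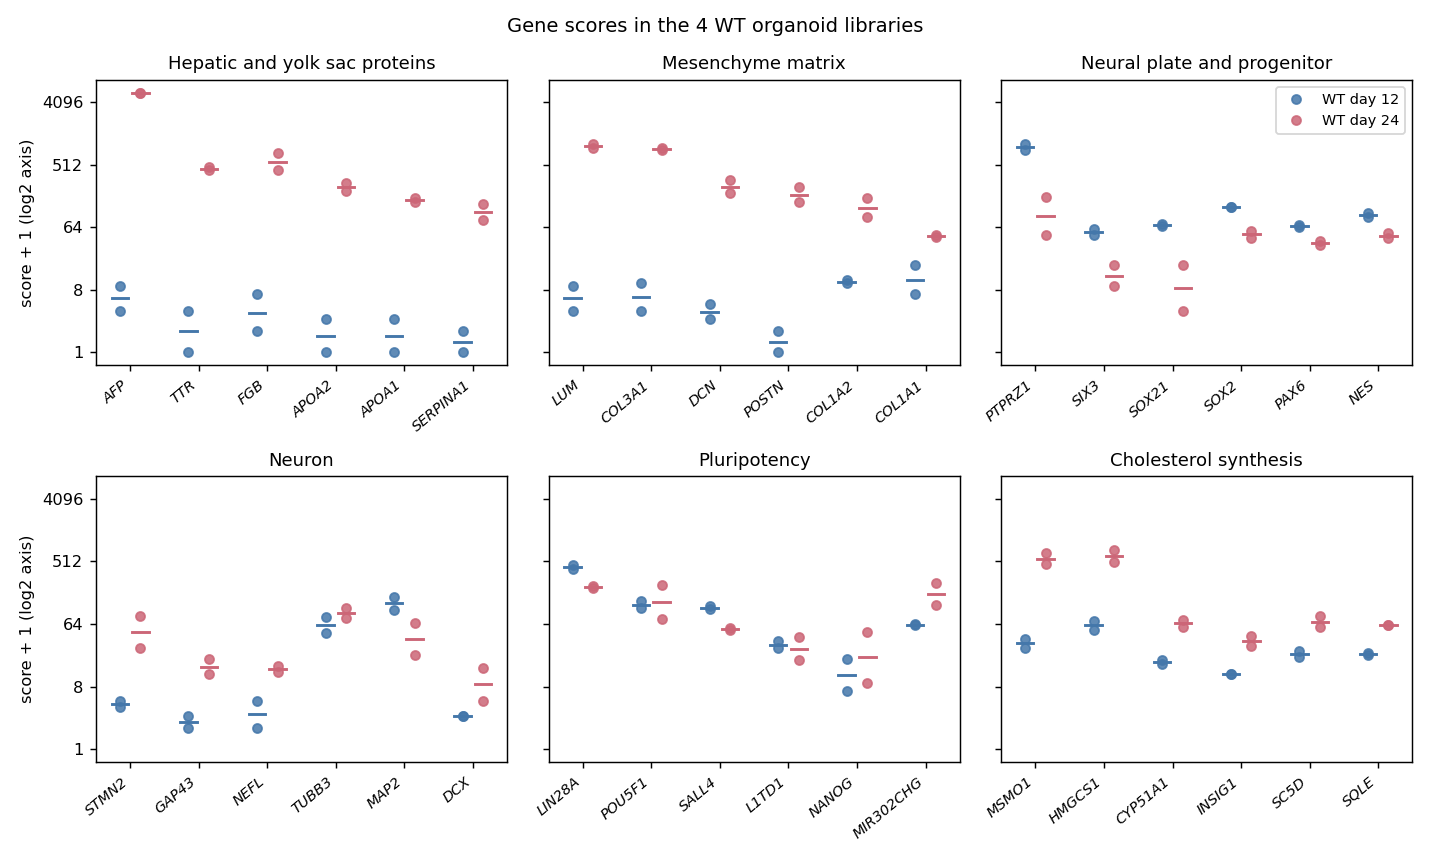
Scores of marker genes in the 4 WT libraries, as score + 1 on a log2 axis, with 1 point per library and a short line at the geometric mean of each day. AFP reached 5585 in both day 24 libraries from 3 and 8 at day 12, and PTPRZ1 went from 821 and 1009 to 172 and 48.

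Genes of mesoderm and mesenchyme formed the other group of large rises. Of 27 members in the files 24 were tested, 16 rose (7.13% of all genes tested did) and none fell, with a median log2 change of 2.69, and 13 of the 24 reached the filter through day 24 alone. Both day 24 libraries were above both day 12 libraries in 20 of the 27, against 31.8% of all genes in the files. They were below in 2, against 30.4%. The log2 changes of the 24 ran from -2.00 to 7.32, with 21 above 0. With the replicate number in the fit, 1 member was called lower. LUM, the collagen-binding proteoglycan lumican (ENSG00000139329, chromosome 12, 91102629 to 91111494), scored 8 and 3 at day 12 and 1009 and 903 at day 24 (log2 fold change 7.32 ± 0.93 SE, adjusted p = 0.00115). Its neighbour DCN, which encodes decorin (chromosome 12, 91140484 to 91183217), scored 2 and 4 at day 12 and 302 and 200 at day 24 (5.99 ± 1.21, adjusted p = 0.00692). POSTN, the matrix protein periostin, scored 0 and 1 at day 12 and 243 and 146 at day 24 (7.07 ± 1.30, adjusted p = 0.00469). HAND1, a transcription factor of extraembryonic and lateral mesoderm, was listed at 0 in both day 12 libraries and scored 70 and 67 at day 24 (adjusted p = 0.00756). IGF2, a growth factor gene of mesenchyme and liver, went from 7 and 9 to 200 and 158 and the signalling ligand gene BMP4 from 3 and 4 to 50 and 43. In each of these genes the day 12 scores were under 10 and the day 24 scores over 20.

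The collagen chains did not move as 1 group. COL3A1 scored 9 and 3 at day 12 and 903 and 821 at day 24 (log2 fold change 7.09 ± 1.29 SE, adjusted p = 0.00458), COL1A2 10 and 9 and then 167 and 88 (3.54 ± 0.89, adjusted p = 0.0166) and COL1A1 17 and 6 and then 48 and 45 (2.08 ± 0.66, adjusted p = 0.0406). COL2A1, the main chain of cartilage collagen, which neuroepithelium also expresses, fell from 97 and 101 to 34 and 21 (-1.85 ± 0.36, adjusted p = 0.00581), and COL11A1 from 28 and 24 to 15 and 10. LAMA1, the laminin alpha chain of early basement membranes, fell from 54 and 48 to 27 and 23 (adjusted p = 0.00299). FN1, the fibronectin gene, rose from 52 and 36 to 198 and 747 (3.12 ± 0.72, adjusted p = 0.012), with a wide gap between its day 24 libraries. Over the 28 collagen and basement membrane genes tested, 9 rose (32.1%) and 3 fell (10.7%), against 7.13% and 7.72% of all genes. The median was -0.14. After a correction for transcript length 9 rose and 1 fell and the median was 0.10, and 1 fell with a pseudocount of 5.

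Leaving out a WT library changed both lists. For mesoderm and mesenchyme, 6 genes were called higher without WT day 12 replicate 1, 11 without WT day 12 replicate 2, 10 without WT day 24 replicate 1 and 8 without WT day 24 replicate 2. For collagens and basement membrane the counts higher and lower were, in the same order, 3 and 1, 4 and 3, 5 and 4, and 1 and 0. Summed scores of the mesenchyme markers COL1A1, COL1A2, COL3A1, LUM, DCN and POSTN were 46 and 26 at day 12 and 2672 and 2203 at day 24, and those of the endoderm markers AFP, APOA1, APOB, SERPINA1, TTR and FGB 4 and 20 and then 7048 and 6802. Both sums were high in both day 24 libraries, but AFP alone, at the top of the scale, gave 5585 of each endoderm sum. Every marker in them was among the genes called higher, so the sums restate those calls.

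Muscle and blood genes in the files were few. Of the 16 genes of the heart and skeletal muscle list 5 were in the files, and these rose (7.13% of all genes tested did). However, 4 of them reached the filter through day 24 alone, which set their direction. Only HAPLN1 reached it through both days. The sarcomere genes MYL4 and TNNI1 were listed at 0 in both day 12 libraries and scored 21 and 12 and, respectively, 33 and 13 at day 24. ACTC1, cardiac alpha-actin, scored 3 and 4 at day 12 and 29 and 23 at day 24 (log2 fold change 2.58 ± 0.43 SE, adjusted p = 0.0032), and HAPLN1, a hyaluronan link protein, 13 and 12 and then 105 and 266 (3.64 ± 0.77, adjusted p = 0.00815). Without WT day 12 replicate 1, 2 of the 5 were called. The embryonic globin gene HBE1 and the fetal globin gene HBG2 were listed at 0 at day 12 and scored 31 and 29 and, respectively, 31 and 18 at day 24, but their intervals overlap on chromosome 11 (5268345 to 5505652 and 5253188 to 5505605) and their reads may not be told apart. EGFL7, which endothelium secretes, went from 13 and 16 to 30 and 30 (1.01 ± 0.31, adjusted p = 0.0369). Of 4 blood and endothelium genes tested 3 rose (7.13% of all genes tested did). However, 3 of the 4 reached the filter through day 24 alone, which set their direction. The count was 1 with a pseudocount of 0.1, 1 without WT day 12 replicate 1 and 2 without any other single WT library.

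Some epithelial genes rose as well. Of 16 genes of surface ectoderm and simple epithelium tested, 6 rose (7.13% of all genes did) and none fell, and all 16 values were above 0 with a median of 1.26. However, 4 of the 16 reached the filter through day 24 alone, which set their direction. The called genes LGALS3, PKP2 and PERP were among these. Counted without the filter, both day 24 libraries were above both day 12 libraries in 16 of the 17 members in the files, against 31.8% of all genes. KRT8, a keratin of simple epithelia whose pseudogenes may share its reads, scored 82 and 91 at day 12 and 250 and 316 at day 24 (log2 fold change 1.69 ± 0.57 SE, adjusted p = 0.0485). EPCAM, an epithelial adhesion molecule, scored 13 and 18 at day 12 and 40 and 85 at day 24 (1.86 ± 0.52, adjusted p = 0.0249), and LGALS3, the lectin galectin-3, 4 and 2 and then 35 and 35 (3.22 ± 0.52, adjusted p = 0.00283). KRT18 (73 and 81 and then 139 and 178) and KRT19 (57 and 58 and then 131 and 142) missed the threshold (adjusted p = 0.239 and 0.147), as did E-cadherin, CDH1 (26 and 28 and then 31 and 55, 0.60 ± 0.43, adjusted p = 0.311). The count was 1 without WT day 12 replicate 1 or without WT day 24 replicate 2, 3 without either of the other WT libraries, 10 without KO#10 day 24 replicate 1, 3 with a pseudocount of 0.1 and 3 after the correction for transcript length. Of 13 tight junction genes tested, CLDN4 alone was called (from 10 and 8 to 20 and 30), and none was without any single WT library.

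Several transcription factors of the neural plate fell. Of 23 members in the files 18 were tested, 7 fell and none rose, against 7.72% of all genes tested that fell, and the median was -1.03. SOX21, a progenitor factor (ENSG00000125285, chromosome 13, 94709622 to 94712545), scored 65 and 70 at day 12 and 17 and 3 at day 24 (log2 fold change -3.01 ± 0.70 SE, adjusted p = 0.0121). SIX3, a factor of the anterior neural plate and eye field, scored 59 and 48 at day 12 and 17 and 8 at day 24 (-2.09 ± 0.36, adjusted p = 0.00367). POU3F1 fell from 24 and 21 to 9 and 4, FEZF1 from 77 and 72 to 39 and 15, SOX11 from 88 and 77 to 38 and 27, ZIC2 from 81 and 70 to 30 and 37 and ZIC5 from 25 and 21 to 11 and 10. Both day 24 libraries were below both day 12 libraries in 13 of the 18 tested, against 32.1% of all genes tested. They were above in 1, against 32.8%.

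Other members of that list did not pass. RAX, of the eye field, scored 49 and 67 at day 12 and 18 and 11 at day 24 (log2 fold change -1.95 ± 1.19 SE, adjusted p = 0.237). PAX6, a factor of dorsal progenitors and eye, scored 68 and 63 at day 12 and 40 and 34 at day 24 (-0.81 ± 0.18, adjusted p = 0.0103), a change under 2-fold. OTX2, of forebrain and midbrain, scored 69 and 73 and then 47 and 36 (-0.77 ± 0.34, adjusted p = 0.112). ZIC1 went against the list, with 3 and 5 and then 16 and 15 (1.75 ± 0.66, adjusted p = 0.0711). The neural plate count was 2 without WT day 12 replicate 1 and 2 without WT day 24 replicate 2. SOX2, a factor of both pluripotent and neural cells, fell from 124 and 126 to 56 and 44 (-1.31 ± 0.35, adjusted p = 0.0196).

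Progenitor genes were lower in part. Of 24 tested 4 fell, against 7.72% of all genes, and none rose, with a median of -0.45. PTPRZ1, a receptor phosphatase of radial glia (ENSG00000106278, chromosome 7, 121873089 to 122062036), scored 821 and 1009 at day 12 and 172 and 48 at day 24 (log2 fold change -3.31 ± 0.92 SE, adjusted p = 0.0251). The WNT antagonist gene SFRP1 fell from 250 and 220 to 94 and 41 (-1.90 ± 0.39, adjusted p = 0.00732) and the polarity gene CRB2 from 40 and 38 to 21 and 13. NES, which encodes nestin, scored 88 and 100 at day 12 and 51 and 44 at day 24 (-0.97 ± 0.19, adjusted p = 0.00606), under 2-fold. The Notch target HES5 scored 55 and 82 and then 36 and 22 (-1.22 ± 0.62, adjusted p = 0.157) and N-cadherin, CDH2, 99 and 167 and then 95 and 44 (-0.98 ± 0.48, adjusted p = 0.148). VIM, vimentin, which mesenchyme shares with radial glia, scored 138 and 242 at day 12 and 316 and 354 at day 24 (0.87 ± 0.32, adjusted p = 0.0646). SOX1, an early neural factor, stayed under the filter (1 and 4 and then 4 and 1). Without a single WT library, 2 were called lower without either library of day 12, 4 without WT day 24 replicate 1 and 1 without WT day 24 replicate 2.

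Some neuronal genes rose from low scores. Of 35 members in the files 13 were tested, 5 rose (7.13% of all genes did) and none fell, with a median of 0.83. STMN2, a microtubule regulator of growing axons, scored 3 and 4 at day 12 and 83 and 28 at day 24 (log2 fold change 3.46 ± 0.58 SE, adjusted p = 0.00311). The growth cone gene GAP43 went from 1 and 2 to 19 and 11 (2.66 ± 0.35, adjusted p = 0.00121), the neurofilament gene NEFL from 1 and 4 to 12 and 15, INA, another neuronal filament, from 2 and 4 to 15 and 12 and TAGLN3 from 14 and 8 to 32 and 22. The first 4 reached the filter through day 24 alone. MAP2, a dendritic microtubule protein, scored 102 and 154 at day 12 and 64 and 22 at day 24 (log2 fold change -1.71 ± 0.78 SE, adjusted p = 0.123), and TUBB3, neuronal beta-tubulin, 47 and 80 and then 107 and 76 (0.55 ± 0.36, adjusted p = 0.276), with overlap between the days. DCX, of migrating neurons, stayed under the filter with 2 and 2 at day 12 and 14 and 4 at day 24, and so did ELAVL3 (0 and 1 and then 7 and 6) and ELAVL4 (0 and 0 and then 7 and 4). Leaving out a WT library left 3 or 4 neuronal genes called, the fit of the 4 WT libraries alone called 3, and a filter of 20 left 7 tested and 2 called.

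Most regional neuronal factors were under the filter. Of 14 cortex genes in the files 3 were tested, with log2 changes of -3.04 to 0.12 (median -0.95). None was called, although both day 24 libraries lay below both day 12 libraries in 2 of the 3, and 1 was called lower in the fit of the 4 WT libraries alone or without KO#10 day 24 replicate 1. Members under the filter included EMX2 at 0 and 0 at day 12 and 6 and 4 at day 24 and RELN, of Cajal-Retzius cells, at 0 and 0 at day 12 and 11 and 8 at day 24. NEUROD6, of cortical projection neurons, and NKX2-1, of ventral forebrain, were listed at 0 in all 4 WT libraries. Of 7 thalamus and diencephalon genes 2 were tested and none was called.

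Receptors and effectors of WNT signalling, which patterns the neural tube, fell in part. In the WNT list, 8 of 21 tested fell, against 7.72% of all genes, and none rose (median -0.69). The receptor gene FZD5 scored 264 and 206 at day 12 and 34 and 18 at day 24 (log2 fold change -3.18 ± 1.06 SE, adjusted p = 0.0477), FZD3 fell from 200 and 94 to 55 and 24 and FZD8 from 37 and 41 to 22 and 7, the ligand gene WNT5B from 35 and 47 to 25 and 11 and the nuclear effector TCF7 from 19 and 11 to 3 and 3. LEF1, a related effector, scored 4 and 5 and then 12 and 14 (1.35 ± 0.56, adjusted p = 0.0965). The WNT count was 2 without WT day 12 replicate 1, 3 without WT day 12 replicate 2, 7 without WT day 24 replicate 1 and 1 without WT day 24 replicate 2, 3 lower and 1 higher in the fit of the 4 WT libraries alone, and 5 lower with the correction for transcript length.

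In the Notch list 3 of 17 tested fell (7.72% of all genes did) and 1 rose. After the correction for transcript length 1 fell, and without KO#10 day 24 replicate 1 there were 5. The glycosyltransferase gene LFNG fell from 55 and 70 to 25 and 15 (-1.63 ± 0.38, adjusted p = 0.0123) and the receptor gene NOTCH2 from 47 and 52 to 24 and 16 (-1.29 ± 0.23, adjusted p = 0.00387), while the target HEY1 rose from 4 and 1 to 10 and 13 (1.97 ± 0.52, adjusted p = 0.0194). Of 19 hedgehog and FGF genes 3 fell (15.8%) and 1 rose (5.26%). The receptor gene FGFR1 scored 172 and 158 at day 12 and 59 and 80 at day 24 (-1.25 ± 0.19, adjusted p = 0.00212 in limma). SPRY1 scored 50 and 70 and then 21 and 21, and ETV5 35 and 53 and then 16 and 17. In the TGF-beta and BMP list 4 of 19 rose (21.1%) and 1 fell (5.26%), against 7.13% and 7.72% of all genes. All 4 that rose reached the filter through day 24 alone, which set their direction. BAMBI, a decoy receptor of that pathway, went from 1 and 2 to 48 and 52 (4.38 ± 0.48, adjusted p = 0.000585), and the ligand gene BMP5 from 2 and 2 to 12 and 14. Without a single WT library, in the order day 12 replicates 1 and 2 and day 24 replicates 1 and 2, the genes called lower numbered 1, 1, 3 and 2 in the Notch list and 4, 1, 1 and 2 in the hedgehog and FGF list, and the genes called higher 2, 3, 3 and 2 in the TGF-beta and BMP list.

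Of 24 axon guidance genes tested 8 fell and 3 rose, against 7.72% and 7.13% of all genes. The ephrin receptor gene EPHA4 scored 162 and 93 at day 12 and 41 and 16 at day 24 (log2 fold change -2.21 ± 0.40 SE, adjusted p = 0.00464), its ligand EFNA5 fell from 58 and 72 to 20 and 20 and ROBO1, a SLIT receptor, from 87 and 104 to 32 and 28. The 3 that rose were SLIT3 (from 1 and 1 to 10 and 10), EFNA1 (from 2 and 3 to 17 and 16) and SEMA3C (from 3 and 4 to 13 and 14), all of them reaching the filter through day 24 alone. Leaving out a WT library gave 4 to 7 lower and 1 or 2 higher, with 4 lower and 1 higher without WT day 12 replicate 1. The correction for transcript length left 5 lower, and with a filter of 20, which left 14 tested, none was higher.

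**Figure D2:**
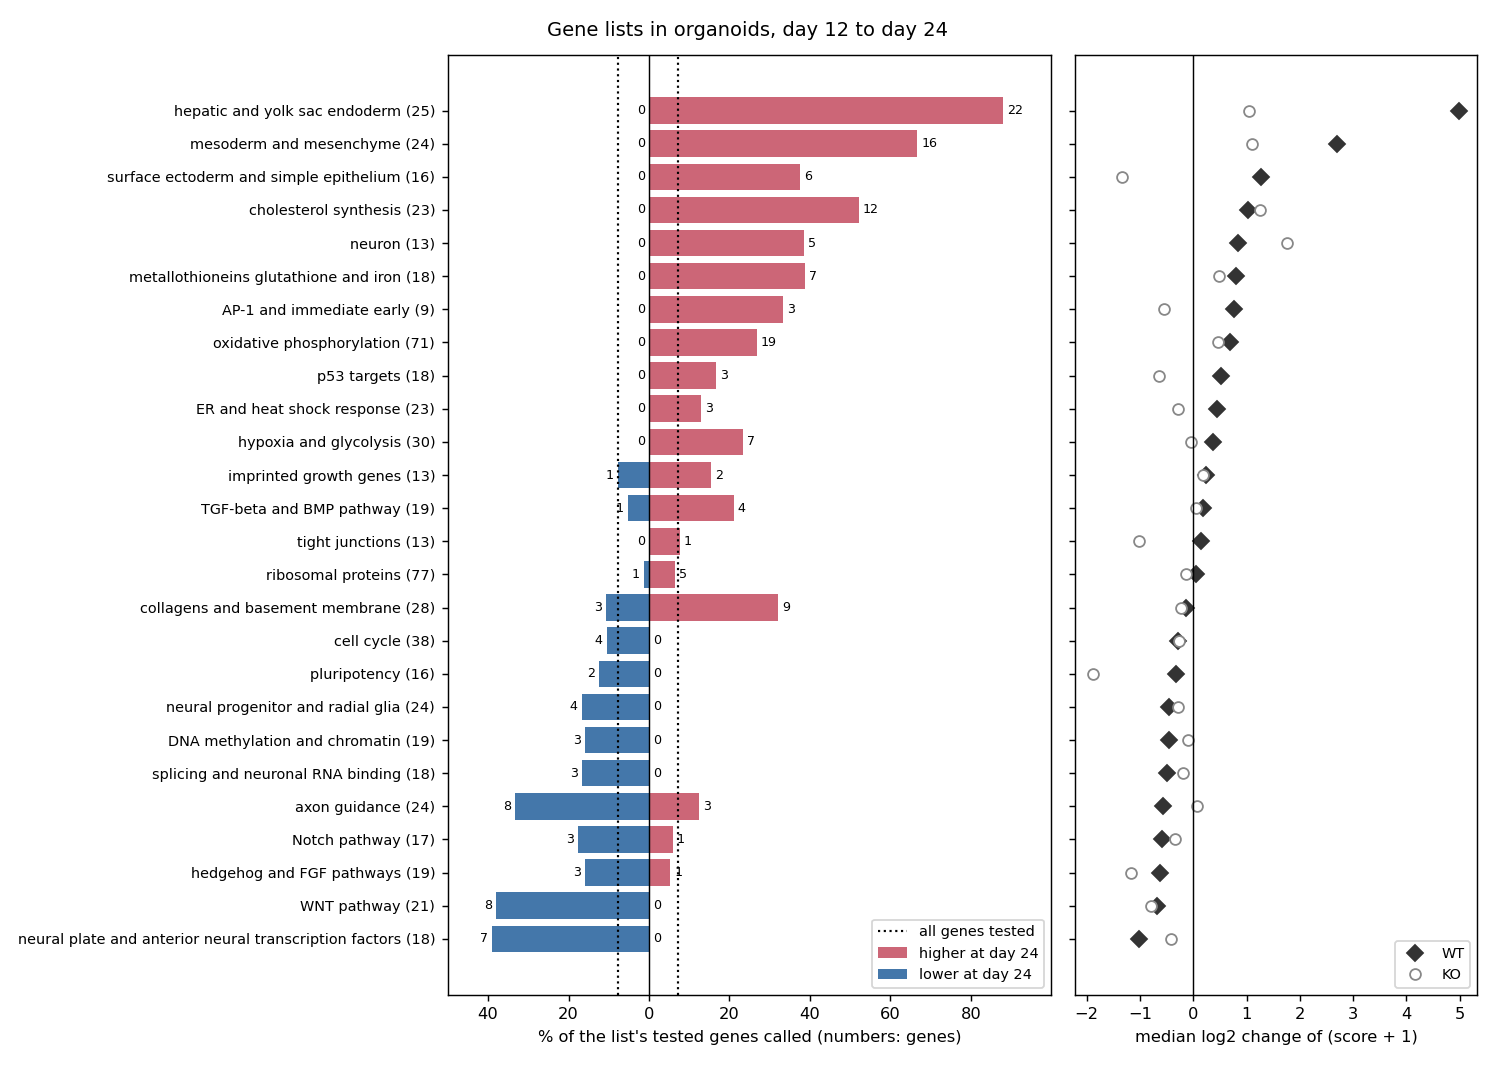
The left panel shows, for each of the 26 lists with at least 9 genes tested, the percentage of genes tested that were higher (to the right) or lower (to the left) at day 24 in WT, with dotted lines at 7.13% and 7.72% for all genes tested and the number of genes beside each bar. The right panel shows the median log2 change of the same genes in WT and, as the mean of both clones, in KO. The hepatic and yolk sac list has the highest WT median (4.99) and the neural plate list the lowest (-1.03).

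Of 16 pluripotency genes tested in WT 2 fell (12.5%), against 7.72% of all genes tested, and none rose. The median was -0.32. Beside SOX2, the zinc finger gene SALL4 fell from 114 and 104 to 52 and 55 (-1.01 ± 0.16, adjusted p = 0.00274). POU5F1, which encodes OCT4 and has pseudogenes that may share its reads, scored 107 and 136 at day 12 and 75 and 236 at day 24 (log2 fold change 0.14 ± 0.43 SE, adjusted p = 0.833), and NANOG 6 and 19 and then 8 and 48 (0.83 ± 0.76, adjusted p = 0.435). The day 24 libraries lay on both sides of the day 12 libraries for POU5F1, where replicate 2 was the higher, and direction changed with the library left out. LIN28A, an RNA-binding protein that blocks let-7 maturation, scored 393 and 452 at day 12 and 212 and 228 at day 24 (-0.94 ± 0.46, adjusted p = 0.145), and L1TD1 28 and 35 and then 18 and 40 (-0.21 ± 0.38, adjusted p = 0.709). MIR302CHG, a microRNA host gene of pluripotent cells, scored 60 and 63 and then 120 and 250 (1.48 ± 0.77, adjusted p = 0.17). Without WT day 12 replicate 1 no member was called lower, 1 without WT day 12 replicate 2, none without WT day 24 replicate 1, where 1 was called higher, and 3 without WT day 24 replicate 2. With the correction for transcript length or a pseudocount of 5, 1 fell.

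Many genes of cholesterol synthesis, which makes sterols from acetyl-CoA, rose. Of 23 tested 12 rose (7.13% of all genes did) and none fell, with a median of 1.03, and none reached the filter through 1 day alone. Both day 24 libraries were above both day 12 libraries in 23 of the 24 members in the files, against 31.8% of all genes. HMGCS1, the synthase that supplies the pathway with HMG-CoA (ENSG00000112972, chromosome 5, 43287470 to 43313512), scored 70 and 52 at day 12 and 750 and 507 at day 24 (log2 fold change 3.33 ± 0.36 SE, adjusted p = 0.000529). MSMO1, a sterol demethylase (ENSG00000052802, chromosome 4, 165327667 to 165343164), scored 38 and 28 at day 12 and 473 and 668 at day 24 (log2 fold change 4.07 ± 0.60 SE, adjusted p = 0.00194). SQLE, the squalene epoxidase gene, went from 22 and 23 to 61 and 61 (1.40 ± 0.24, adjusted p = 0.00337), CYP51A1 from 16 and 18 to 72 and 57 and the sterol sensor INSIG1 from 11 and 11 to 30 and 42. Leaving out any WT library left 11 or 12 called, and the correction for transcript length left 11.

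CCAAT, the box bound by NF-Y, was searched in the same way as GTTAAT and was also chosen after the scores were seen. It stood within 250 bases before a start in 16 of the 18 cholesterol genes with a RefSeq promoter (88.9%) and in 8 of the 9 of these that rose, against 3856 of 8907 genes of the files (43.3%). Among all called genes with a promoter, CCAAT stood in that stretch in 39.7% of those higher and 43.5% of those lower. MSMO1 and HMGCS1 are shown because they had the largest rises of the list, with CCAAT or its reverse complement in capitals. MSMO1 covers chr4:165327419-165327668 on the plus strand, with matches that begin 185, 139, 76 and 34 bases before the start, and HMGCS1 covers chr5:43313413-43313662 on the minus strand, with matches at 155 and 100.
MSMO1: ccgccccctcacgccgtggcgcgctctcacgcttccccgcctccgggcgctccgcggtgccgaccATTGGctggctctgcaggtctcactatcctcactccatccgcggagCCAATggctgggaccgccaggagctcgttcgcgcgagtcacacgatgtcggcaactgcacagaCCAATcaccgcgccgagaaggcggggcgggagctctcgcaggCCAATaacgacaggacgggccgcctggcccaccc
HMGCS1: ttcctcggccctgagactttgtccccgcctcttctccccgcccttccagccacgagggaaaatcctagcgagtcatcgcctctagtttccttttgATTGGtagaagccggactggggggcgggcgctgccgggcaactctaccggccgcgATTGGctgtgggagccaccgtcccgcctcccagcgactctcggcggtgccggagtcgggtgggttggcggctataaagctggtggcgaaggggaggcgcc

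Subunits of oxidative phosphorylation rose in part. Of 71 tested 19 rose, against 7.13% of all genes, and none fell, with a median of 0.68. Both day 24 libraries were above both day 12 libraries in 57, against 32.8% of all genes tested. ATP5PF, a stalk subunit of ATP synthase, scored 15 and 15 at day 12 and 86 and 80 at day 24 (log2 fold change 2.39 ± 0.22 SE, adjusted p = 0.000218), the complex I gene NDUFC2 19 and 22 and then 84 and 92 (2.05 ± 0.20, adjusted p = 0.000261) and the cytochrome oxidase gene COX7A2 84 and 71 and then 450 and 262 (2.14 ± 0.23, adjusted p = 0.000529). Most of these are short genes, with a median longest transcript of 1582 bases against 3683.5 over all genes tested. With the correction for transcript length, 10 rose and 1 fell and the median was 0.25. The count was 12 without WT day 12 replicate 1, 12 without WT day 24 replicate 1 and 12 in the fit of the 4 WT libraries alone.

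Ribosomal protein genes did not move as a family. Of 77 tested 5 rose (6.49%) and 1 fell (1.3%), against 7.13% and 7.72% of all genes, with a median of 0.05. RPS15A scored 748 and 820 at day 12 and 3036 and 3036 at day 24 (log2 fold change 1.95 ± 0.18 SE, adjusted p = 0.000232) and RPL27 108 and 74 and then 279 and 395 (1.88 ± 0.30, adjusted p = 0.00258). RPSA, which has many pseudogenes and whose score is therefore uncertain, fell from 5585 and 5585 to 1202 and 1202 from the top level of the scale (-2.22 ± 0.50, adjusted p = 0.0111). With the correction for transcript length 4 rose and 4 fell and the median was -0.26, and the counts were 6 and 4 without WT day 12 replicate 2 and 3 and 0 without WT day 24 replicate 2.

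The change in WT went with transcript length across genes. Pearson's r between the log2 change and the log2 length of the longest annotated transcript was -0.333 over 8890 genes, which share the same libraries, and -0.221 for the KO change, while r with GC content was 0.0166. In the 1778 genes with the shortest transcripts, of 265 to 2124 bases, 15.6% rose and 2.98% fell, and in the 1778 with the longest, of 5989 to 205012 bases, 3.26% rose and 15.7% fell. The median longest transcript was 2354 bases in the genes that rose and 5282.5 in those that fell. With a correction for transcript length, which was chosen after the values were seen, 491 genes were higher and 536 lower, and 38 of the 174 named genes that were called lost their call.

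Many long non-coding RNA genes fell. Of 193 tested, 90 fell (46.6%) and 10 rose, against 591 of 8681 protein-coding genes that fell (6.81%). LINC00504 (ENSG00000248360, chromosome 4, 14470465 to 14888169) scored 3030 and 1006 at day 12 and 35 and 39 at day 24 (log2 fold change -5.52 ± 0.46 SE, adjusted p = 0.000144), LINC02895 3046 and 1009 and then 47 and 36 (-5.38 ± 0.64, adjusted p = 0.000863) and LINC02503 1204 and 1204 and then 33 and 25 (-5.34 ± 0.35, adjusted p = 5.81e-05). MIAT fell from 148 and 83 to 27 and 10 and BLACAT1 from 63 and 48 to 9 and 3. Among those that rose, LINC02381 went from 1 and 1 to 32 and 16 and LINC01356 from 1 and 2 to 17 and 36. The microRNA host gene MIR17HG fell from 37 and 34 to 11 and 10 (-1.67 ± 0.25, adjusted p = 0.002). The correction for transcript length gave 93 long non-coding genes that fell and 5 that rose, and without WT day 12 replicate 1 or WT day 24 replicate 2 there were 51 and 58 that fell.

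Coding genes with the largest falls included NEDD4, a ubiquitin ligase (ENSG00000069869, chromosome 15, 55826922 to 55993660), with 1204 and 1204 at day 12 and 52 and 52 at day 24 (log2 fold change -4.51 ± 0.55 SE, adjusted p = 0.000918). REV3L, the catalytic subunit of DNA polymerase zeta, scored 604 and 552 at day 12 and 23 and 20 at day 24 (-4.69 ± 0.28, adjusted p = 5.81e-05), and BLOC1S6, a subunit of a complex for lysosome-related organelles, 900 and 747 and then 54 and 43 (-4.06 ± 0.34, adjusted p = 0.000153). Both libraries of day 24 were far below both of day 12 in each of the 3. Of 5 scaRNA genes tested, which guide the modification of spliceosomal RNA, 4 rose. SCARNA7 scored 11 and 15 at day 12 and 426 and 134 at day 24 (log2 fold change 4.11 ± 0.77 SE, adjusted p = 0.00516) and SCARNA5 187 and 107 and then 452 and 338 (1.46 ± 0.35, adjusted p = 0.0133). SCARNA2 scored 0 and 114 at day 12 and 354 and 336 at day 24, with its day 12 libraries far apart.

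**Figure D3:**
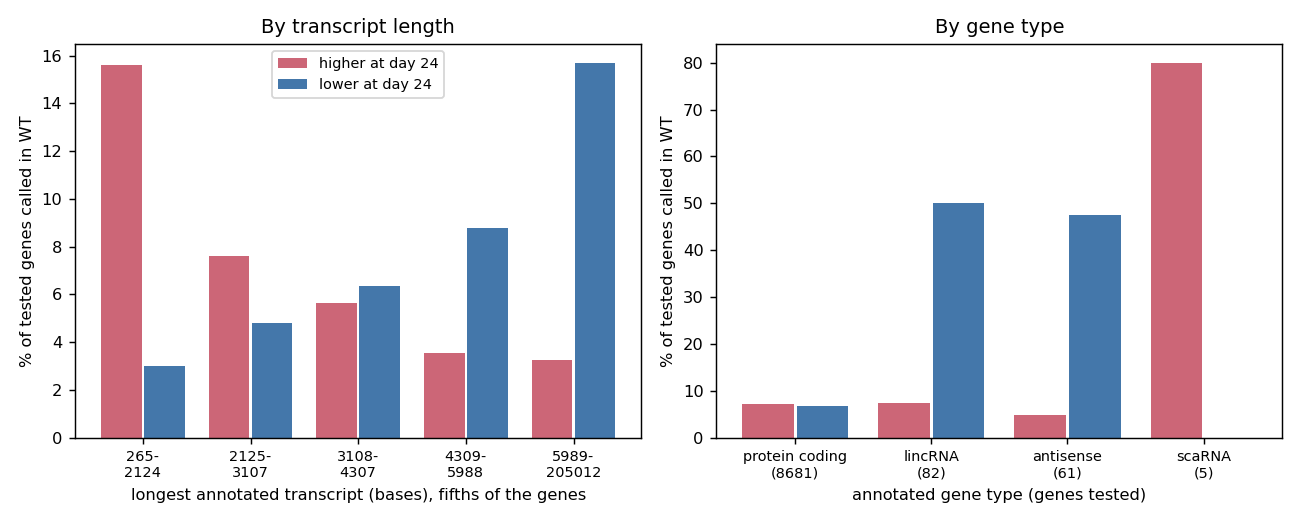
Percentage of genes tested that were higher or lower at day 24 in WT, in 5 bins of equal gene number by the longest annotated transcript in bases (left) and by annotated gene type with the number tested (right). The share that rose goes from 15.6% in the shortest bin to 3.26% in the longest, and 50% of the lincRNA genes and 47.5% of the antisense genes fell.

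Few cell cycle genes were called. Of 38 tested 4 fell (7.72% of all genes did) and none rose, with a median of -0.29. Both day 24 libraries lay below both day 12 libraries in 19 and above them in 3, against 32.1% and 32.8% of all genes tested. The 4 that fell were CCND2, TOP2A, CENPF and MKI67. CCND2, a cyclin of neural progenitors, went from 177 and 144 to 65 and 63 (-1.31 ± 0.24, adjusted p = 0.00466 in limma). The topoisomerase gene TOP2A fell from 315 and 205 to 124 and 104. The kinetochore gene CENPF fell from 82 and 60 to 38 and 27. The proliferation marker MKI67 fell from 32 and 32 to 14 and 15. Of 19 DNA methylation and chromatin genes 3 fell (15.8%, against 7.72% of all genes) and none rose. HELLS, a chromatin remodeller needed for DNA methylation, scored 184 and 148 at day 12 and 36 and 52 at day 24 (log2 fold change -1.91 ± 0.27 SE, adjusted p = 0.00164), and the maintenance methyltransferase gene DNMT1 79 and 70 and then 33 and 35 (-1.11 ± 0.15, adjusted p = 0.00136). DNMT3B, the de novo enzyme of pluripotent cells, scored 100 and 114 and then 51 and 100 (-0.57 ± 0.28, adjusted p = 0.141). Of 18 splicing and RNA-binding genes 3 fell (16.7%, against 7.72% of all genes). They were MSI2 (from 81 and 65 to 32 and 26), NOVA1 (from 25 and 33 to 13 and 10) and IGF2BP1 (from 110 and 87 to 47 and 49). None of the splicing and RNA-binding genes was called with the correction for transcript length, and their median longest transcript was 5981.5 bases. The cell cycle count was 2 without WT day 12 replicate 1, 2 without WT day 24 replicate 2, 2 in the fit of the 4 WT libraries alone and 2 with the correction for transcript length.

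Some stress and metabolic genes rose, against 7.13% of all genes tested. The share was 23.3% for hypoxia and glycolysis, 38.9% for metallothionein, glutathione and iron, 16.7% for p53 targets and 33.3% for AP-1. In that order 2, 4, 4 and 2 of the genes tested reached the filter through day 24 alone, which set their direction. NDRG1, GDF15, GADD45A, JUN and DUSP1 were among these. Of 30 hypoxia and glycolysis genes tested 7 rose and none fell, among them the collagen prolyl hydroxylase gene P4HA1 (from 26 and 29 to 107 and 108, 1.93 ± 0.25, adjusted p = 0.0012) and NDRG1 (from 3 and 5 to 26 and 19). That count was 3 without WT day 12 replicate 1 and 2 without WT day 24 replicate 2. Of 18 metallothionein, glutathione and iron genes 7 rose, of which GSTO1 went from 16 and 16 to 57 and 58 (1.78 ± 0.38, adjusted p = 0.00869), and 3 were called without WT day 12 replicate 1 and 4 without WT day 12 replicate 2. Of 18 p53 targets 3 rose, the cytokine gene GDF15 (from 1 and 5 to 35 and 73), the cell cycle inhibitor gene CDKN1A (from 19 and 15 to 35 and 54) and GADD45A (from 8 and 8 to 14 and 24). Of 9 AP-1 and immediate early genes tested 3 rose, JUN (1.16 ± 0.24, adjusted p = 0.00794), DUSP1 (from 4 and 8 to 18 and 10) and ATF3 (from 5 and 10 to 28 and 36). Without WT day 12 replicate 1, 1 p53 target and 1 AP-1 gene were called, and the same numbers were found without WT day 24 replicate 2 and in the fit of the 4 WT libraries alone. With the correction for transcript length 1 p53 target was called, and with a pseudocount of 5, 1 AP-1 gene.

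Imprinted genes of chromosome 11 moved in both directions. IGF2 and the growth inhibitor gene CDKN1C (from 8 and 14 to 42 and 40, 1.85 ± 0.22, adjusted p = 0.000837) rose, and the non-coding RNA KCNQ1OT1 fell from 18 and 10 to 1 and 1 (-2.85 ± 0.37, adjusted p = 0.0012). KCNQ1OT1 lies antisense within KCNQ1, and how the counting treated strand is not stated in the sources used here. The other 10 imprinted genes tested were not called.

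Whether the change with time differed from that in KO was tested in the same fit, as the WT change minus the mean change of KO#2 and KO#10. The difference was above 0 in 70 genes (0.787%) and below 0 in 36 (0.405%). Of these, 42 were called higher in WT and above, 24 lower in WT and below, and 36 were not called in WT. The filter used the WT libraries alone. It favoured a difference above 0 in genes that reached it only through WT day 24, among them GDF15 and CA4. Likewise it favoured a difference below 0 in genes that reached it only through WT day 12. Genes high only in KO were not tested, so the counts above and below 0 are not an even comparison. GDF15 went from 1 and 5 to 35 and 73 in WT, from 5 and 11 to 1 and 2 in KO#2 and from 9 and 8 to 3 and 3 in KO#10, a difference of 5.42 ± 0.66 SE (adjusted p = 0.00748). CA4 went from 3 and 6 to 20 and 15 in WT, from 11 and 14 to 0 and 0 in KO#2 and from 14 and 16 to 2 and 0 in KO#10, a difference of 5.27 ± 0.60 SE (adjusted p = 0.00748). LIN28A went from 393 and 452 to 212 and 228 in WT, from 335 and 302 to 25 and 11 in KO#2 and from 335 and 302 to 26 and 8 in KO#10, a difference of 3.33 ± 0.56 SE (adjusted p = 0.0262). In these 3 genes the day 24 libraries of WT lay above all 4 of KO. These genes were chosen among those called for a difference above 0, which favours such a separation. Its share over all genes was not counted.

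The count of differences depended on single libraries. It was 0 in limma without WT day 12 replicate 1 (660 at an unadjusted p under 0.05) and 0 without WT day 24 replicate 2 (575), 29 without WT day 12 replicate 2, 65 without WT day 24 replicate 1, and 608 without KO#10 day 24 replicate 1. That KO#10 library had summed scores of 1206 for the endoderm markers and 3232 for the mesenchyme markers, where the other KO libraries of day 24 had 33 to 85 and 138 to 179. AFP, with a difference of 7.34 ± 3.05 SE (adjusted p = 0.209), and COL3A1, with 1.90 ± 1.58 SE (adjusted p = 0.546), did not pass, which does not show that their changes were alike. For the cholesterol genes MSMO1 and HMGCS1 the differences were 1.39 ± 0.74 SE (adjusted p = 0.318) and 0.14 ± 0.44 SE (adjusted p = 0.892), and the KO median of that list was 1.25.

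**Figure D4:**
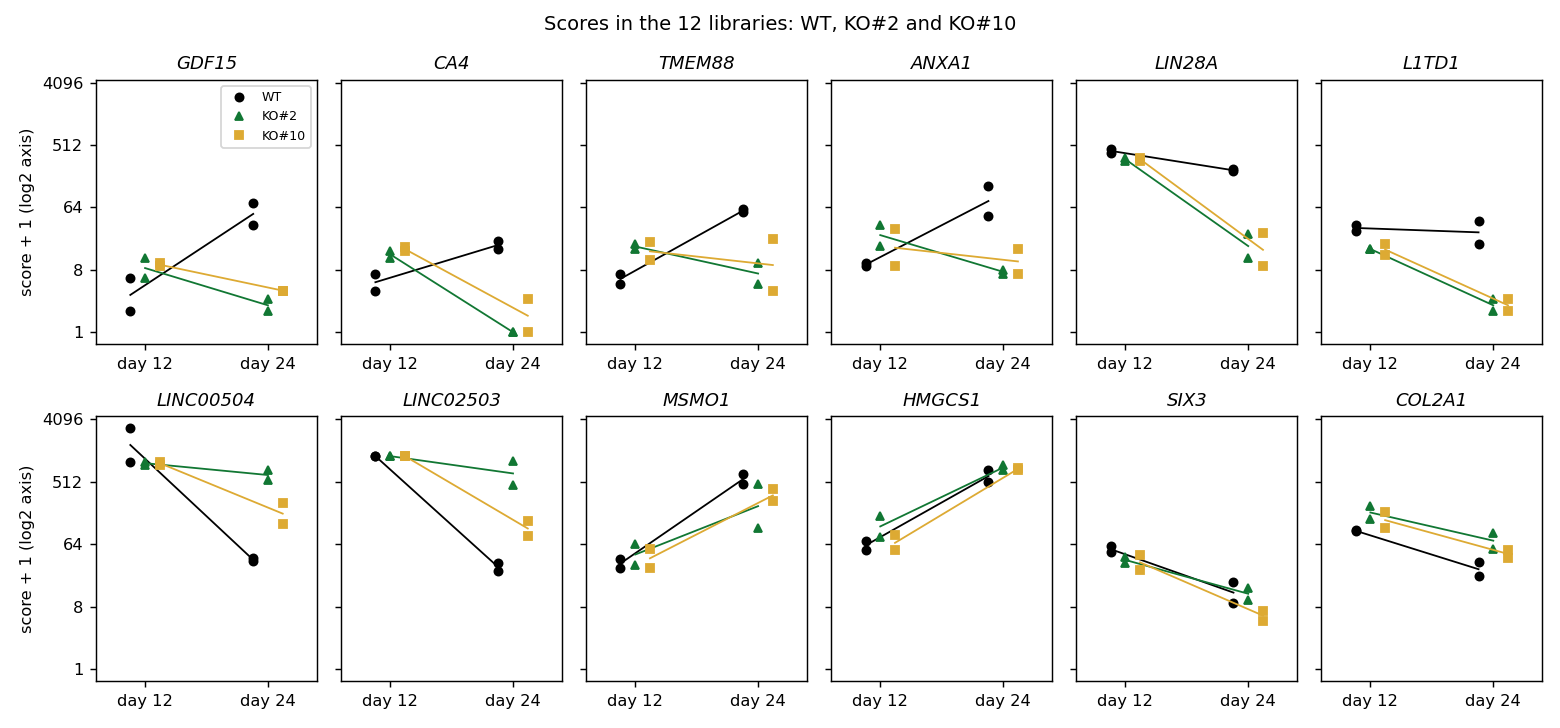
Scores of 12 genes in all 12 libraries, as score + 1 on a log2 axis, at day 12 and day 24 in WT, KO#2 and KO#10, with 1 point per library and lines joining the geometric means. GDF15 goes up in WT and down in both clones, and LIN28A ends at 212 and 228 in WT against 8 to 26 in KO.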

How the data were processed

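Total RNA of pooled COs was sequenced in 12 libraries, grouped by the sample labels. The authors deposited a whole-number score per gene and library, normalized by a method that is not given in the sources used here. The submitters' processing notes name bcl2fastq, RSEM, Bowtie2 and the build mm10, although the gene identifiers and coordinates are human. Sequencing depth is unknown. Scores were transformed as log2 (score + 1). Genes that reached a score of 10 in 2 or more of the 4 WT libraries were tested with limma 3.58.1 in R 4.3.3 (lmFit, eBayes with a variance trend) over all 12 libraries in 6 groups, with 6 residual degrees of freedom. Adjustment was by Benjamini-Hochberg over all genes tested, and calls needed an adjusted p below 0.05 together with a change of 2-fold or more. The code was tested on simulated data. The genes named are those with the largest changes, up to 6 called members of each list in each direction, fixed marker genes, JUN, and the largest differences from KO. Some further genes, the promoter motifs and 2 corrections, for transcript length and for GC content, were chosen with their values in view. The members and the 36 gene lists were chosen with earlier results of these data known. Alternatives changed the libraries in the fit, the pseudocount (0.1 and 5), the filter (none and 20), the variance trend, the centring, the adjustment of p and the replicate block. Fold changes on this scale understate those of genes with low scores. Results of some genes are not reported here. Promoters came from RefSeq (GRCh38.p14). Python 3.11.15 (numpy 2.4.6, pandas 2.3.3, matplotlib 3.10.9) produced the other tables and all figures.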

Additional observations from a re-analysis of the deposited data

Results flagged for a closer look

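The following genes had a change from day 12 to day 24 that differed between WT and KO, tested as the WT change minus the mean change of both clones in the limma fit of all 12 libraries. Values are differences on the log2 scale. The filter used the WT libraries alone. GDF15, CA4, ANXA1, TMEM88, ACTA2, APOC1, ANXA3, MYOF, ACTC1, LGALS3, PERP, GADD45A and LINC01356 reached it only through WT day 24. This favoured a difference above 0 in these genes. No difference was called in limma without WT day 12 replicate 1 (660 at an unadjusted p under 0.05) or without WT day 24 replicate 2 (575), so each rests on these libraries.

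Differences above 0 were 5.42 for GDF15, 5.27 for CA4, 4.28 for ANXA1, 4.27 for TMEM88, 3.90 for ACTA2, 3.90 for STOM, 3.63 for APOC1, 3.47 for ANXA3, 3.43 for MYOF, 3.32 for ACTC1, 3.31 for CLDN4, 3.29 for LGALS3, 2.82 for RAB25 and 2.53 for PERP. The pluripotency genes LIN28A, L1TD1 and SALL4 had differences of 3.33, 2.48 and 1.20, and the long non-coding RNA LINC01356 had 2.96.

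Further differences above 0 were those of CDKN1A (2.70), ATF3 (2.56), GADD45A (2.37), DDIT3 (2.16), P4HA1 (1.97), UQCRB (1.85), RPS15A (1.79), ATP5PF (1.66) and NDUFC2 (1.51). Differences below 0 were those of LINC00504 (-4.03), LINC02503 (-3.18), KIAA1328 (-3.05), REV3L (-2.96), TMEM212 (-2.89), BLOC1S6 (-2.48) and NOVA1 (-1.31).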

How the results depend on the processing

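With a filter of 20, 413 genes were higher and 454 lower, and with a pseudocount of 5, 447 were lower. Leaving out single libraries, where the lone sample is assumed to vary like the other groups, gave 315 to 668 higher and 354 to 714 lower. Under the other settings both counts stayed within 1.5 times. The 106 differences between WT and KO became 162 with a pseudocount of 5, 798 at an unadjusted p and 0 to 608 without single libraries. What the replicate numbers stand for is not given in the labels. Deviations of libraries with the same number correlated with r = -0.0574 to 0.542 over the 15 pairs of groups (0.202 between WT day 12 and WT day 24), with r over 0.1 in 11, and the other 4 pairs all held KO#10 day 24, so the numbers were not taken to pair all libraries. With the replicate block, 678 genes were higher, 701 lower and 286 differed from KO. None of the 174 named genes that were called reversed, and 70 kept their call under every setting. The reversed values were those of L1TD1 (0.34 without WT day 24 replicate 1, against -0.77 without replicate 2), NANOG (-0.39 without WT day 24 replicate 2, against 2.05 without replicate 1), POU5F1 (-0.0297 without WT day 12 replicate 1, -0.68 without WT day 24 replicate 2, against 0.96 without replicate 1 of that day, and -0.10 with the length correction) and SCARNA13 (-0.24 with the length correction). The causes were not tested. Depth is unknown, so low scores cannot be given a counting error, and 2 libraries per group limit every test.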
